A study of Rattus norvegicus with 10 samples.

Results

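Cardiomyocyte nuclei are the nuclei of the contractile cells of heart muscle. Here they came from the area at risk, the part of the rat heart supplied by an artery that is tied off and then reopened (myocardial ischaemia and reperfusion injury). A barcode with at least 500 UMIs (unique molecular identifiers, each counting 1 captured RNA molecule) was taken as a cardiomyocyte nucleus where the 6 genes Ttn, Ryr2, Myh6, Myh7, Ctnna3 and Rbm20 together made up at least 2% of its UMIs. Ptprc, Flt1 and Pdgfra, genes of leukocytes, endothelial cells and fibroblasts, had to sum to at most 3 UMIs. The rule found 1472 cardiomyocyte nuclei among 22037 barcodes. There were 800 among 10497 barcodes with BT2, which is 7.62% (exact Clopper-Pearson 95% interval 7.12 to 8.14%), and 672 among 11540 with vehicle, which is 5.82% (5.40 to 6.27%).

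The study compared rats given BT2, a compound known here only by that name, with rats given vehicle. Nuclei were profiled 24 h after ligation of the left coronary artery in 1 library of BT2-treated rats, at 100 mg/kg, and 1 library of vehicle-treated rats. The series text counts the same hours from the injury. Tissue RNA of the area at risk was sequenced in 2 libraries per group, from BT2-treated and from vehicle-treated rats, at 4 h and at 24 h. Each animal in these groups carried the coronary ligation, and no uninjured heart is compared here. The labels and series text give no strain, sex, age, number of animals behind a library, or dose for the tissue samples. With 1 nuclear library per group no test between BT2 and vehicle was possible for the nuclei. Nuclear values are therefore CPM (UMIs summed over all cardiomyocyte nuclei of a library and scaled to a total of 1000000), and each ratio carries an exact 95% Poisson interval that covers counting error only. Ratios of 1.5-fold or more in either direction are called higher or lower. The tissue libraries give the replicated comparison of the same genes, but their p-values measure the spread between 2 libraries a group, which may be technical.

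Cardiomyocytes contract through sarcomeres, in which myosin thick filaments slide along actin thin filaments while titin spans the unit as a spring. Each beat is started by calcium that the ryanodine receptor lets out of the sarcoplasmic reticulum and ended by the pump SERCA2, which returns it. The cells draw most of their energy from fatty acids burned in mitochondria, and the injured ventricle is known for reactivating fetal genes such as those of the natriuretic peptides and beta myosin.

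The cardiomyocyte nuclei held 3968555 UMIs with BT2 and 4764918 with vehicle, which is 12.2% of all UMIs of the BT2 library and 10.48% of those of the vehicle library. A BT2 nucleus was shallower, with a median of 3264 UMIs and 1544.5 genes, against 5888 UMIs and 2254.5 genes in vehicle. Mitochondrially encoded transcripts made up a median of 0.144% of the UMIs of a nucleus with BT2 and 0.0778% with vehicle. In all, 37 barcodes occurred in both libraries, and 1 of them was a cardiomyocyte nucleus in both. Gene counts, lists and named genes were also computed with each nucleus thinned to 1000 UMIs, with a minimum of 1000 UMIs and with depths between the 5th and 95th percentile, and the ranges over 15 alternatives given here include these. Alternatives with a minimum of 20 or of 500 UMIs per gene change only the gene counts, and cannot move a list median or a named gene.

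The 6 genes of the rule made up a median of 9.69% of the UMIs of a BT2 nucleus and 8.16% in vehicle. The lowest shares inside the rule were 2.002% with BT2 and 2.027% with vehicle, and the highest below its 2% minimum, among barcodes within the ceiling, were 1.949% with BT2 and 1.977% with vehicle. The ceiling on Ptprc, Flt1 and Pdgfra removed 108 BT2 barcodes and 197 vehicle barcodes that had passed the marker share. Troponin and myosin-binding protein genes, which are outside the rule, were found in most of the nuclei. Tnnt2, cardiac troponin T, had at least 1 UMI in 93.5% of the nuclei with BT2 and 95.5% with vehicle, against 10.7% of leukocyte nuclei (at least 3 Ptprc UMIs) with BT2 and 11.9% with vehicle. The median depth of these leukocyte nuclei was 1916 UMIs with BT2 and 2272 with vehicle. Mybpc3, cardiac myosin-binding protein C, was found in 92.0% of the nuclei with BT2 and 92.9% with vehicle, against 6.004% of leukocyte nuclei with BT2 and 7.755% with vehicle. The atrial genes Sln and Bmp10 had 0 UMIs in both libraries, and Myl7 had 2 UMIs with BT2 and 0 with vehicle. Genes most concentrated in these nuclei against the other barcodes, outside the rule, included Sbk1, Ky, Gabrb2, Ros1 and Gja3, at 28.6 to 32.9 times the CPM of all other nuclei. That is a description, since the nuclei were picked by expression.

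**Figure D1:**
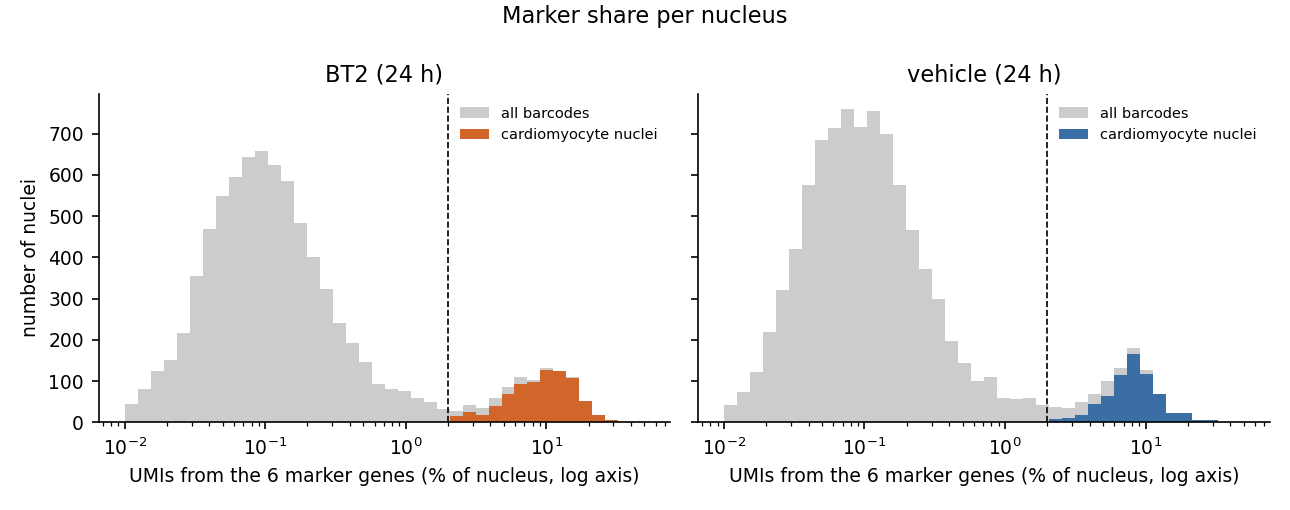
Number of nuclei (vertical axis) by the percent of their UMIs that came from the 6 marker genes (horizontal log axis), with BT2 on the left and vehicle on the right; grey bars are all barcodes, coloured bars the cardiomyocyte nuclei and the dashed line the 2% bound. Barcodes under 0.01% are not drawn. In both libraries the cardiomyocyte nuclei form a separate hump, with medians of 9.69% with BT2 and 8.16% with vehicle.

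RNA of other cells was present at low levels in the cardiomyocyte nuclei and was not equal between the libraries. Of 12 endothelial markers 10 had at least 100 UMIs over both libraries, 9 of these were higher with BT2, and the list summed to 579.8 CPM with BT2 and 393.5 CPM with vehicle. Of 12 fibroblast markers 7 had that many UMIs, 6 were higher with BT2, and the list summed to 295.6 CPM with BT2 and 123.6 CPM with vehicle. Col1a2 was at 0 in both libraries. Flt1 of the endothelial list and Pdgfra of the fibroblast list are capped by the rule, so their values were partly set by the selection. The cap is a count of UMIs, which allows a higher CPM in shallower nuclei. In nuclei with Ptprc, Flt1 and Pdgfra at 0, 8 of 9 endothelial and 6 of 6 fibroblast markers were higher with BT2. Macrophage markers summed to 241.4 CPM with BT2 and 265.3 CPM with vehicle, with 0 of 6 measured genes higher and 2 lower. Schwann cell markers summed to 95.8 CPM with BT2 and 30.0 CPM with vehicle. For comparison, the same endothelial list summed to 4322 CPM in all other nuclei with BT2 and 4207 CPM with vehicle. In those other nuclei the fibroblast list summed to 2185 CPM with BT2 and 1179 CPM with vehicle. Schwann cell markers summed there to 479 CPM with BT2 and 258 CPM with vehicle, and macrophage markers to 1580 and 2720 CPM. The fibroblast and Schwann lists were thus higher with BT2 in the other nuclei too. The part of RNA of other cells in the gene values that follow was not tested.

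Over all 7404 genes with at least 100 UMIs, 636 were higher with BT2 (8.59%) and 269 were lower (3.63%), with a median log2 ratio of 0.03. This split depends on scaling, since TMM factors gave 522 higher and 376 lower, and giving each nucleus equal weight gave 671 and 489. Among the 1202 genes with at least 2 times the CPM of all other nuclei, 75 were higher and 139 lower, and the median log2 ratio was -0.16. Among the other 6202 genes 561 were higher and 130 lower, with a median of 0.06. The shares over all 7404 genes are the background for the list counts that follow.

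The contractile apparatus was nearly level, apart from alpha myosin. Of 22 sarcomere genes 18 were measured (at least 100 UMIs), 1 was higher and 0 were lower, beside a background of 8.59% and 3.63%, and the median log2 ratio was -0.03. That single gene was Myh6, the fast alpha myosin heavy chain of the adult rodent ventricle, at 764 CPM with BT2 and 289 CPM with vehicle (ratio 2.65, counting interval 2.48 to 2.82). Myh7, the slow beta myosin, stood at 1902 CPM with BT2 and 1893 CPM with vehicle (ratio 1.005, 0.97 to 1.04). Myh6 thus supplied 28.7% of the UMIs of both myosins with BT2 (exact interval 27.8 to 29.5%) and 13.2% with vehicle (12.6 to 13.9%). Both genes are in the rule, and they are near-identical neighbours whose reads the counting could split, so this share is a description. With each nucleus thinned to 1000 UMIs, 743 BT2 and 641 vehicle nuclei were deep enough, while 57 BT2 and 31 vehicle nuclei were left out. Myh6 was then seen in 45.4% of BT2 nuclei and 21.7% of vehicle nuclei. Unthinned, it was seen in 65.4% of BT2 nuclei and 48.8% of vehicle nuclei. The thinned share in leukocyte nuclei was 2.96% with BT2 and 1.80% with vehicle.

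Titin (Ttn), the giant spring of the sarcomere, was at 64868 CPM with BT2 and 53321 CPM with vehicle (ratio 1.22, 1.21 to 1.22). Tnnt2 was at 2183 CPM with BT2 and 2197 CPM with vehicle, and Actc1, cardiac actin, at 301 CPM with BT2 and 292 CPM with vehicle. Of the M-band and Z-disc genes 17 of 20 were measured, 0 were higher and 1 was lower, with a median of -0.25. That gene was Mypn, myopalladin of the Z-disc, with 400 CPM in BT2 nuclei and 602 CPM in vehicle nuclei (ratio 0.66, 0.62 to 0.71). Actn2, the actinin that crosslinks actin at the Z-disc, had 770 CPM with BT2 and 1010 CPM with vehicle (ratio 0.76, 0.73 to 0.80). All 23 intercalated disc genes, which join cardiomyocytes end to end, were measured and lay within 1.5-fold, with a median of -0.07.

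Promoters of 3 of the genes on which the contrast turned are shown, each from 250 bases before to 50 after the start of the gene, from RefSeq on the build GRCr8. Xirp2 and Myh6 stand for the stress and contractile genes with the highest ratios of their lists, and Pdk4 had the lowest ratio of all cardiomyocyte-enriched genes named here. Capitals mark matches, on either strand, to motifs known from muscle or stress genes, namely the motifs of MEF2 factors (letters CTANNNNTAG), of TEAD factors, called M-CAT (letters CATTCC), of AP-1 (letters TGANTCA) and of GATA factors (letters AGATAA). Xirp2 lies at chr3:72533936-72534235 on the plus strand and holds an AP-1 match whose first base is at -107 and a MEF2 match at -74, each counted from the gene start. Myh6 lies at chr15:32411648-32411947 on the minus strand, with an M-CAT match at -23. Pdk4 lies at chr4:34568280-34568579 on the minus strand, and none of the 4 letter patterns occurs in its window.
Xirp2: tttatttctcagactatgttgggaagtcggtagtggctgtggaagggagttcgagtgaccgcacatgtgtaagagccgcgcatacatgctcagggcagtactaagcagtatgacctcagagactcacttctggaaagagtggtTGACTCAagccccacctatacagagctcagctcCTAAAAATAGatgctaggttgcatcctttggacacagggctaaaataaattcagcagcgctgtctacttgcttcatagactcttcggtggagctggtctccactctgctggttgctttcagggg
Myh6: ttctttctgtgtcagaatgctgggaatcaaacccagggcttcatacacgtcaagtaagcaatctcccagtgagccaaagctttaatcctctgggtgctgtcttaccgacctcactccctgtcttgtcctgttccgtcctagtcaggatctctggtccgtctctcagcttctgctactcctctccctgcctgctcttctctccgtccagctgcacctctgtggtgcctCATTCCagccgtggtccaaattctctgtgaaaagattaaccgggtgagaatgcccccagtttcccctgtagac
Pdk4: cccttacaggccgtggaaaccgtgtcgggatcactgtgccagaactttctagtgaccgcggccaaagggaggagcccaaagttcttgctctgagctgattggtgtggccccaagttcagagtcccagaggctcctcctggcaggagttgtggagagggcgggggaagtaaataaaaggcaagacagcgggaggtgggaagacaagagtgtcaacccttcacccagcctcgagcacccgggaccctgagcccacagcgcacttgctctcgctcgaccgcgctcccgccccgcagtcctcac
Among all 33469 rat promoter windows of this length, 3.84% hold the MEF2 letters, 14.2% the M-CAT letters, 7.33% the AP-1 letters and 11.6% the GATA letters. These matches describe sequence and show no binding.

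Calcium handling genes were mostly a little lower with BT2, as cardiomyocyte-enriched genes were as a class. Of 20 listed genes 14 were measured, 1 was higher and 2 were lower, and 3 lay above a ratio of 1. The median log2 ratio was -0.19. Over the 1202 genes with at least 2 times the CPM of all other nuclei it was -0.16. Of those 1202 genes 75 were higher, 139 were lower and 389 lay above a ratio of 1. Atp2a2, which encodes SERCA2, had 1515 CPM with BT2 and 2324 CPM with vehicle (ratio 0.65, 0.63 to 0.67). Pln, phospholamban, the brake on SERCA2, had 495 CPM with BT2 and 768 CPM with vehicle (ratio 0.64, 0.61 to 0.68). Both came within 1.5-fold when nuclei were weighted equally, with ratios of 0.73 for each. Ryr2, the ryanodine receptor, had 10936 CPM with BT2 and 14389 CPM with vehicle (ratio 0.76, 0.75 to 0.77). Hrc, a calcium-binding protein of the sarcoplasmic reticulum, was the gene that was higher, at 51.4 CPM with BT2 and 24.97 CPM with vehicle (ratio 2.06, 1.63 to 2.60). Slc8a1, the sodium-calcium exchanger, was close to level, at 5949 CPM with BT2 and 6011 CPM with vehicle.

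Among ion channels and pumps 24 of 30 were measured, 2 were higher and 1 was lower, with a median of -0.02. The 2 higher genes, Cacna1g and Gjc1, stood at lower CPM in cardiomyocyte nuclei than in the other nuclei. Of the adrenergic and growth receptor genes 21 of 27 were measured, with 1 higher and 1 lower. Adra1b, an alpha-1 adrenergic receptor, was the lower one, at 100 CPM with BT2 and 161 CPM with vehicle (ratio 0.62, 0.55 to 0.70).

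Genes of fuel use made up the clearest group on the lower side. Of 39 fatty acid genes 29 were measured, 0 were higher and 12 were lower, beside 8.59% and 3.63% over all genes. Of the 1202 cardiomyocyte-enriched genes 75 were higher and 139 lower. Among the 29 fatty acid genes 26 lay below a ratio of 1, with a median log2 ratio of -0.52. The whole list summed to 2746 CPM with BT2 and 3881 CPM with vehicle. In all other nuclei it was also lower with BT2, at 1074 CPM against 1316 CPM with vehicle. The list median stayed between -0.63 and -0.40 over 15 alternative ways of choosing nuclei, scaling and filtering. Among these, the minimums of 20 and of 500 UMIs per gene could not move it, since they change neither the list members nor their ratios. The number lower ran from 6 to 16, with 6 when nuclei were weighted equally and 7 at depths between the 5th and 95th percentile. Lpl, lipoprotein lipase, which frees fatty acids from blood lipids, had 176 CPM with BT2 and 407 CPM with vehicle (ratio 0.43, 0.39 to 0.47). Acadl, the long-chain acyl-CoA dehydrogenase, had 211 CPM with BT2 and 394 CPM with vehicle (ratio 0.54, 0.49 to 0.58), and Acsl1, which activates fatty acids, had 177 CPM with BT2 and 286 CPM with vehicle (ratio 0.62, 0.56 to 0.68). Cpt1b, the muscle gate of fatty acid entry into mitochondria, was within 1.5-fold, at 97.0 CPM with BT2 and 109 CPM with vehicle.

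Respiratory chain genes and genes of the citrate cycle and branched-chain amino acid breakdown also lay on the lower side, by less than 1.5-fold for most. Of 33 respiratory chain genes 25 were measured, 0 were higher and 3 lower, and 24 lay below a ratio of 1 with a median of -0.38. Over the alternatives 2 to 9 were lower, with 9 after thinning, when 2 were higher. Of 32 citrate cycle and branched-chain genes 28 were measured, 0 were higher and 1 lower, and the median was -0.34. Over the alternatives 1 to 6 were lower, with 6 after thinning, when 2 were higher. The gene lower in the pooled UMIs was Mccc2, a carboxylase of leucine breakdown, with 43.6 CPM in BT2 nuclei and 84.0 CPM in vehicle nuclei.

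Among 30 measured genes of glucose use 2 were higher and 5 lower, with a median of -0.14. At a marker share of at least 10%, 5 were higher and 7 lower. At depths between the 5th and 95th percentile 2 were higher and 2 lower. Pdk4, the kinase that shuts pyruvate out of the citrate cycle and is known as a target of PPAR factors, had 98.5 CPM with BT2 and 344 CPM with vehicle (ratio 0.29, 0.26 to 0.32). Its transcript was seen in 16.5% of BT2 nuclei and 58.5% of vehicle nuclei. After thinning it was seen in 4.04% of BT2 nuclei and 21.7% of vehicle nuclei, against 0.102% of leukocyte nuclei with BT2 and 1.11% with vehicle. The lower level was not particular to cardiomyocyte nuclei. In all other nuclei Pdk4 had 4.54 CPM with BT2 and 21.45 CPM with vehicle. Its log2 ratio was -2.54 in leukocyte, -2.16 in endothelial and -3.72 in fibroblast nuclei, at low counts, and -1.80 in cardiomyocyte nuclei. The source of Pdk4 RNA in the other nuclei was not tested. Slc16a1, the lactate and pyruvate carrier MCT1, was also lower, at 160 CPM with BT2 and 282 CPM with vehicle (ratio 0.57, 0.52 to 0.62).

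Transcription factors of the cardiomyocyte showed a similar split. Of 34 listed, 31 were measured, 1 was higher and 2 were lower, and the median was -0.02. Ppara, the factor that drives fatty acid genes in heart, had 293 CPM with BT2 and 512 CPM with vehicle (ratio 0.57, 0.53 to 0.61), and Klf15, another metabolic regulator, had 22.7 CPM with BT2 and 38.8 CPM with vehicle. Ppard, a relative of Ppara, was the higher one, at 203 CPM with BT2 and 134 CPM with vehicle (ratio 1.52, 1.36 to 1.68). Ppargc1a and Esrrg, regulators of mitochondrial genes, were within 1.5-fold, with ratios of 0.75 (0.70 to 0.80) and 0.72 (0.70 to 0.74). Mef2a, Gata4 and Tbx20 were likewise within 1.5-fold.

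**Figure D2:**
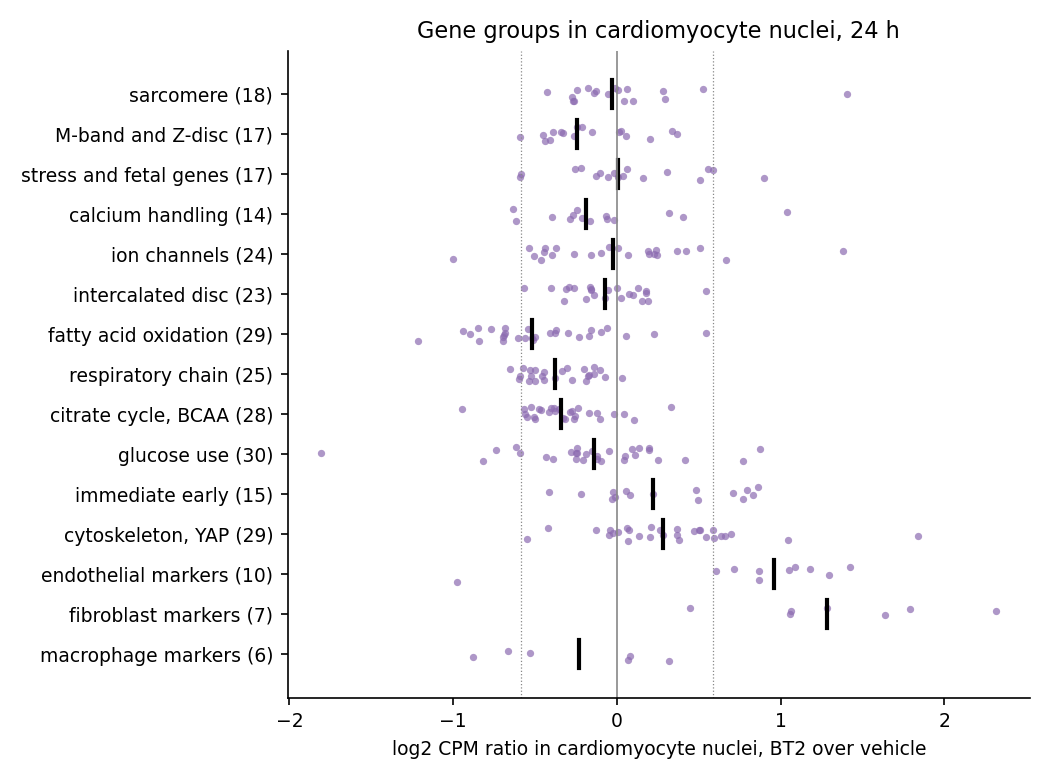
Log2 CPM ratio of BT2 over vehicle in cardiomyocyte nuclei (horizontal axis) for the measured members of 15 gene lists, with the number measured in brackets; each dot is a gene, each black bar a list median and the dotted lines mark 1.5-fold. The medians of fatty acid oxidation (-0.52) and the respiratory chain (-0.38) lie to the left, and those of endothelial (0.96) and fibroblast markers (1.28) to the right.

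Stress and fetal genes went both ways, and their count depended on which nuclei were taken. Of 22 listed, 17 were measured, 2 were higher and 2 lower, and the median was 0.01, with a range of -0.52 to 0.09 over the 15 alternatives. Among nuclei with a marker share of at least 10%, 0 of the 17 were higher and 8 were lower, at the median of -0.52. Xirp2, an actin-binding repeat protein of the intercalated disc and Z-disc, had 8779 CPM with BT2 and 4708 CPM with vehicle (ratio 1.86, 1.83 to 1.90). Ctgf, a matrix and growth factor gene, had 113 CPM with BT2 and 75.3 CPM with vehicle, and stood lower in cardiomyocyte nuclei than in the other nuclei. With nuclei weighted equally its log2 ratio was -0.0145. Bag3, a chaperone partner that maintains the sarcomere, was lower, at 178 CPM with BT2 and 268 CPM with vehicle (ratio 0.66, 0.61 to 0.73), as was Ankrd23. Ankrd1, a stress-induced titin-binding protein, had 1967 CPM with BT2 and 2348 CPM with vehicle (ratio 0.84, 0.81 to 0.86). The natriuretic peptide genes were within 1.5-fold when UMIs were pooled: Nppa had 192 CPM with BT2 and 155 CPM with vehicle (ratio 1.24, 1.12 to 1.37), and Nppb had 153 CPM with BT2 and 164 CPM with vehicle (ratio 0.93, 0.84 to 1.04). With every nucleus weighted equally the ratios of Nppa, Nppb and Ankrd1 were 0.80, 0.62 and 0.67, so the direction for Nppa turned.

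That difference between weightings came with a very uneven spread of these transcripts over nuclei. The 5% of nuclei with most Nppa UMIs held 65.0% of its UMIs with BT2 and 48.4% with vehicle. For Xirp2 the top 5% held 61.7% with BT2 and 49.8% with vehicle. Nuclei were ranked here by UMIs of the gene without correction for depth, so depth enters these shares. For Ryr2, a gene seen in nearly all the nuclei, the top 5% held 34.1% with BT2 and 18.7% with vehicle. Among 1147 genes measured in thinned nuclei, Xirp2 had the second highest ratio of variance to mean in both libraries, after Ttn, at 26.8 with BT2 and 14.2 with vehicle, where the median gene had 1.16 in each. Its median per 10000 UMIs was close, at 10.1 in BT2 nuclei and 11.1 in vehicle nuclei, whereas the 90th percentile was 147 with BT2 and 113 with vehicle and the 99th percentile 529 with BT2 and 363 with vehicle. The lower quartile was 3.419 with BT2 and 4.484 with vehicle, and the upper quartile 25.02 with BT2 and 30.21 with vehicle. At the median and both quartiles Xirp2 was therefore lower with BT2, and the higher pooled level came with the upper tail. With every nucleus weighted equally the Xirp2 ratio was 1.325. The 80 BT2 and 67 vehicle nuclei with most Xirp2 held 20.99% of the cardiomyocyte UMIs with BT2 and 13.83% with vehicle, so pooling gave them unequal weight. Without the 80 BT2 and 67 vehicle nuclei with most Xirp2, chosen after seeing the data, Xirp2 stood at 2719 CPM with BT2 and 2009 CPM with vehicle, a ratio of 1.35 and no longer past 1.5-fold. With a marker share of at least 10%, its log2 ratio was 0.15.

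These 80 BT2 and 67 vehicle nuclei were deeper than the rest. With BT2 their median was 7735.5 UMIs, against 3097.5 in the other nuclei, and with vehicle it was 8736 UMIs, against 5721. Across thinned nuclei, ranked by the mean of the correlations in both libraries, the genes that varied most like Xirp2 were Lmcd1 (Pearson r of 0.63 with BT2 and 0.54 with vehicle), Actn1 (0.54 with BT2 and 0.58 with vehicle), Enah (0.61 with BT2 and 0.50 with vehicle) and Ryr3 (0.54 with BT2 and 0.55 with vehicle). Lmcd1 encodes a LIM protein active in cardiac growth signalling, Actn1 and Enah encode actin-binding proteins, and Ryr3 a ryanodine receptor that is not the main cardiac form. Csrp3, Sorbs2 and Tgfb2 were also among the 10 most positive. The most negative were Lama2, a laminin chain (-0.47 with BT2 and -0.35 with vehicle), Rbm20, the splicing factor of titin (-0.38 with BT2 and -0.35 with vehicle), and Cacna1c, the L-type calcium channel (-0.36 with BT2 and -0.35 with vehicle). Myh6 ran the other way from Xirp2 (-0.35 with BT2 and -0.18 with vehicle) and along with Ttn (0.39 with BT2 and 0.28 with vehicle). These correlations describe 743 BT2 nuclei and 641 vehicle nuclei at equal depth, and nuclei of a library share its preparation and free RNA. Myh6, Ttn and Rbm20 are genes of the rule, so the selection of nuclei shapes their correlations with each other and with Xirp2. At a fixed depth, more UMIs of an abundant gene such as Ttn also leave fewer for the others.

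**Figure D3:**
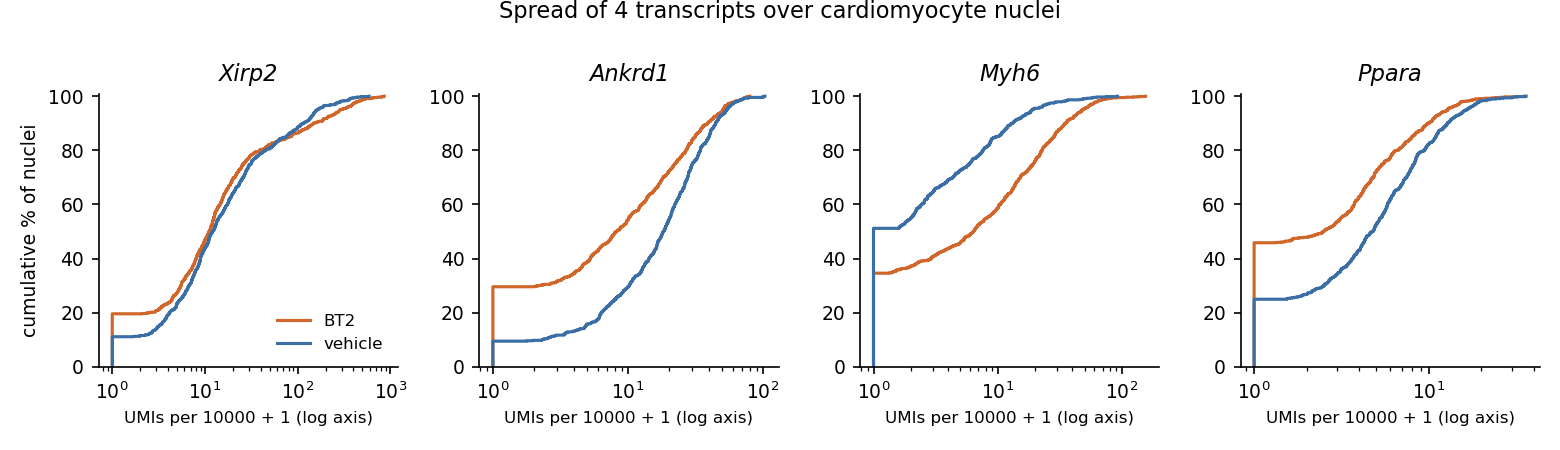
Cumulative percent of cardiomyocyte nuclei (vertical axis) against UMIs per 10000 plus 1 (horizontal log axis) for Xirp2, Ankrd1, Myh6 and Ppara, with BT2 in orange and vehicle in blue. For Xirp2 the curves run close to a median of 10.1 with BT2 and 11.1 with vehicle and part in the upper tail, while Myh6 lies to the right with BT2 and Ankrd1 and Ppara to the left.

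Immediate early genes, ERK feedback genes and cytoskeletal genes lay on the higher side, the same side as the markers of other cells. Of 28 immediate early genes 15 were measured, 5 were higher and 0 lower, with a median of 0.22. With nuclei weighted equally 2 were higher. Junb, a subunit of AP-1, had 41.8 CPM with BT2 and 24.5 CPM with vehicle (ratio 1.70, 1.34 to 2.18), and was seen in 14.0% of BT2 nuclei and 14.3% of vehicle nuclei, against 10.1% of leukocyte nuclei with BT2 and 9.12% with vehicle. Runx1 had 114 CPM with BT2 and 65.7 CPM with vehicle, but it was seen in 26.0% of the nuclei with BT2 and 26.3% with vehicle, below the 72.9% of leukocyte nuclei with BT2 and 76.9% with vehicle. Fosb had 3 UMIs with BT2 and 18 with vehicle and Egr1 had 10 UMIs with BT2 and 19 with vehicle, too few for a firm ratio. Of 20 ERK feedback genes 7 were measured, 3 were higher and 0 lower, and their median of 0.50 ran between -0.11 and 0.74 over the alternatives. With nuclei weighted equally 0 were higher.

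Of 35 cytoskeleton and YAP target genes 29 were measured, 7 were higher and 0 lower, with a median of 0.28 that ran between -0.03 and 0.41. The number higher ran from 3 to 10, and after thinning 6 were higher and 4 lower. Among the higher genes, Cald1, an actin-binding regulator, had 204 CPM with BT2 and 126 CPM with vehicle, and Tnc, a matrix glycoprotein of injured tissue, had 30.0 CPM with BT2 and 8.40 CPM with vehicle. Both stood well below their CPM in the other nuclei, at 0.223 and 0.105 times, and Tnc was seen in 5.0% of the nuclei with BT2 and 3.87% with vehicle, against 6.004% of leukocyte nuclei with BT2 and 3.767% with vehicle. Il1r1, the interleukin-1 receptor, the cytokine list's gene with the highest ratio among those with at least 200 UMIs, had 122 CPM with BT2 and 58.1 CPM with vehicle, at 0.0804 times its CPM in other nuclei. Beside these genes, fibroblast markers summed to 295.6 CPM with BT2 and 123.6 CPM with vehicle, and their part was not tested.

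Protein-folding and death genes were near the background. Of 13 measured genes of the unfolded protein response 0 were higher and 1 lower, of 15 heat shock genes 2 were higher and 1 lower, and of 20 cell death genes 2 were higher and 2 lower. Gadd45g, a stress-response gene enriched in these nuclei, had 226 CPM with BT2 and 137 CPM with vehicle (ratio 1.66, 1.495 to 1.83). Its log2 ratio was -0.0544 among nuclei with a marker share of at least 10%. Bnip3, a mitochondrial death and mitophagy protein, had 23.7 CPM with BT2 and 44.1 CPM with vehicle (ratio 0.54, 0.42 to 0.69), and a log2 ratio of 0.37 after thinning. Of 27 measured autophagy and atrophy genes 0 were higher and 4 lower, among them Txnip, the thioredoxin inhibitor, with 141 CPM in BT2 nuclei and 320 CPM in vehicle nuclei (ratio 0.44, 0.40 to 0.49). Of 24 measured cytokine signalling genes 3 were higher and 3 lower, with a median of -0.02. After thinning 6 of them were higher and 3 lower. Socs2 and Cish, cytokine feedback inhibitors, were both lower, with ratios of 0.62 (0.54 to 0.72) and 0.57 (0.39 to 0.82). Fkbp5, a target of glucocorticoids, had 289 CPM with BT2 and 460 CPM with vehicle (ratio 0.63, 0.58 to 0.67). Of 30 cell cycle genes only 3 reached 100 UMIs.

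Other cardiomyocyte-enriched genes were higher with BT2. Ptgfr, the prostaglandin F receptor, had 39.6 CPM with BT2 and 13.6 CPM with vehicle (ratio 2.90, 2.16 to 3.93), and Ros1, a receptor tyrosine kinase, had 102 CPM with BT2 and 37.6 CPM with vehicle (ratio 2.71, 2.27 to 3.25). Ky, a muscle peptidase, had 71.3 CPM with BT2 and 35.9 CPM with vehicle (ratio 1.99, 1.64 to 2.42). Lmcd1 had 1542 CPM with BT2 and 817 CPM with vehicle (ratio 1.89, 1.81 to 1.97), but 1.27 with nuclei weighted equally.

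On the lower side, after Pdk4, Ano5, a membrane protein whose loss causes muscular dystrophy in humans, had 153 CPM with BT2 and 458 CPM with vehicle (ratio 0.33, 0.31 to 0.37). In all other nuclei Ano5 was lower with BT2 too, at 5.55 CPM against 24.2 CPM with vehicle. Clu, the secreted chaperone clusterin, had 59.5 CPM with BT2 and 140 CPM with vehicle (ratio 0.43, 0.37 to 0.50). Slc2a12, a glucose transporter, had 34.3 CPM with BT2 and 74.9 CPM with vehicle (ratio 0.46, 0.37 to 0.56). Ddc, aromatic amino acid decarboxylase, had 63.0 CPM with BT2 and 135 CPM with vehicle (ratio 0.47, 0.40 to 0.54). Kdr, the VEGF receptor gene, was the single endothelial marker on this side, at 70.0 CPM with BT2 and 138 CPM with vehicle. Of the 74 named genes past 1.5-fold, 38 stayed past it in all 15 alternatives, Ptgfr, Ros1, Myh6, Hrc, Ky, Pdk4, Ano5, Lpl and Txnip among them. The minimums of 20 and of 500 UMIs per gene are counted in the 15 but could not move these ratios. Mypn, Bag3, Ankrd23, Adra1b, Ppard, Klf15, Mccc2, Gjc1, Cald1, Fkbp5, Socs2 and Slc2a12 came within 1.5-fold in at least 1 alternative with no change of sign.

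**Figure D4:**
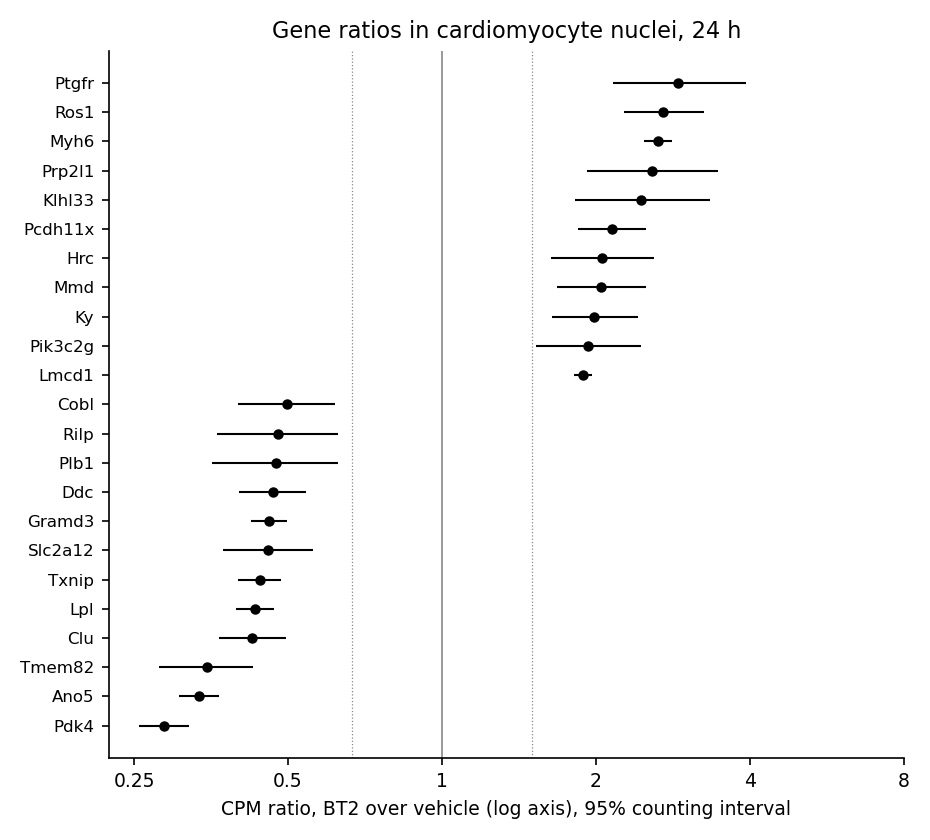
CPM ratio of BT2 over vehicle in cardiomyocyte nuclei (horizontal log axis) for 11 of the 12 highest and for the 12 lowest ratios among cardiomyocyte-enriched genes with at least 200 UMIs; points are ratios, bars exact 95% counting intervals and dotted lines 1.5-fold. Ptgfr lies at 2.90 and Pdk4 at 0.29.

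The tissue at 24 h gave the replicated view of the same genes, and for fuel genes its direction was opposite to that of the nuclei. Over all 15216 genes tested with edgeR's quasi-likelihood test, 2873 were higher with BT2 (18.9%) and 3143 lower (20.7%) at a Benjamini-Hochberg adjusted p under 0.05. Leaving out 1 library lowered these counts, to 1490 higher and 1492 lower without BT2 library 1, 1647 and 1822 without vehicle library 1, and 1484 and 1588 without vehicle library 2. In tissue, fewer cardiomyocytes and less RNA per cardiomyocyte cannot be told apart, and nuclear RNA, which holds unspliced transcripts, was set beside polyA-selected tissue RNA. Of the 29 fatty acid genes 28 rose in tissue and 0 fell, with a median log2 fold change of 1.12, beside a nuclear median of -0.52. All 25 respiratory chain genes rose in tissue (median 0.82), and all 28 citrate cycle and branched-chain genes rose (median 0.83). Contractile genes rose as well, with 12 of 18 sarcomere genes higher and 1 lower in tissue.

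Cardiomyocyte genes as a class shifted in tissue in the same way. Of the genes at 10 or more times the CPM of other nuclei in each library, 319 were tested in tissue, and 201 rose and 13 fell, with a median of 0.92. In the nuclei 338 such genes had a median of -0.14, with 31 higher and 40 lower. Among 1135 genes at 2 or more times that were tested in tissue, 56.2% rose and 6.34% fell. Of the 132 among them that were lower in nuclei, 80 rose, 2 fell and 50 were not called in tissue. Of the 69 that were higher in nuclei, 34 rose, 10 fell and 25 were not called.

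Myh6 was higher on both sides, with 10610 and 8585 CPM in the BT2 tissue libraries, against 4700 and 4226 CPM in the vehicle libraries. The groups did not overlap, and edgeR gave a log2 fold change of 1.11 (SE 0.17, adjusted p = 0.00227). Hrc had 738 and 597 CPM in BT2 tissue, against 225 and 214 CPM in vehicle tissue (edgeR log2 fold change 1.61, SE 0.13, adjusted p = 0.000371). Ros1 (2.43, adjusted p = 0.000669) and Ky (2.72, adjusted p = 0.00127) rose in tissue too by edgeR.

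Xirp2 went opposite ways. In tissue it had 656 and 424 CPM with BT2, against 2463 and 2216 CPM with vehicle, and edgeR gave a log2 fold change of -2.12 (SE 0.23, adjusted p = 0.000832). Lmcd1 did the same, with 97.3 and 105 CPM with BT2 against 371 and 441 CPM with vehicle (log2 fold change -2.004, SE 0.24, edgeR adjusted p = 0.00108). Of the genes that varied with Xirp2 across nuclei, several fell in tissue by edgeR, with log2 fold changes of -1.996 for Actn1 (adjusted p = 0.0032), -1.16 for Enah (adjusted p = 0.00527), -1.07 for Ryr3 (adjusted p = 0.0221), -1.15 for Csrp3 (adjusted p = 0.00335), -0.36 for Sorbs2 (adjusted p = 0.03) and -2.27 for Tgfb2 (adjusted p = 0.000331). Pvt1, a noncoding RNA gene among the 10 most positive, had -1.21 (edgeR adjusted p = 0.00819). Dmd, dystrophin, also among those 10, was not called, at a log2 fold change of 0.24 (edgeR adjusted p = 0.206). In the nuclei, Enah had 1989 CPM with BT2 and 1784 CPM with vehicle (ratio 1.11, 1.08 to 1.15), and Csrp3 had 776 CPM with BT2 and 931 CPM with vehicle (ratio 0.83, 0.80 to 0.87). Nppa fell in tissue, with 500 and 240 CPM with BT2 against 1911 and 1940 CPM with vehicle (edgeR log2 fold change -2.38, SE 0.32, adjusted p = 0.00168). Of the 17 stress and fetal genes 2 rose and 8 fell in tissue.

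Lpl, Pln and Atp2a2, lower in nuclei, rose in tissue. Lpl had 2247 and 1758 CPM with BT2, against 836 and 780 CPM with vehicle (edgeR log2 fold change 1.31, SE 0.16, adjusted p = 0.00101). Atp2a2 had 10220 and 7985 CPM with BT2, against 3728 and 4078 CPM with vehicle (1.22, SE 0.16, edgeR adjusted p = 0.0013). Pdk4 had 76.6 and 135 CPM in BT2 tissue, against 84.5 and 62.4 CPM in vehicle tissue. These groups overlapped and the gene was not called (edgeR log2 fold change 0.53, SE 0.46, adjusted p = 0.393). Ppara, at 122 and 74.2 CPM with BT2 against 62.8 and 47.0 CPM with vehicle, was not called either (adjusted p = 0.0607, edgeR).

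**Figure D5:**
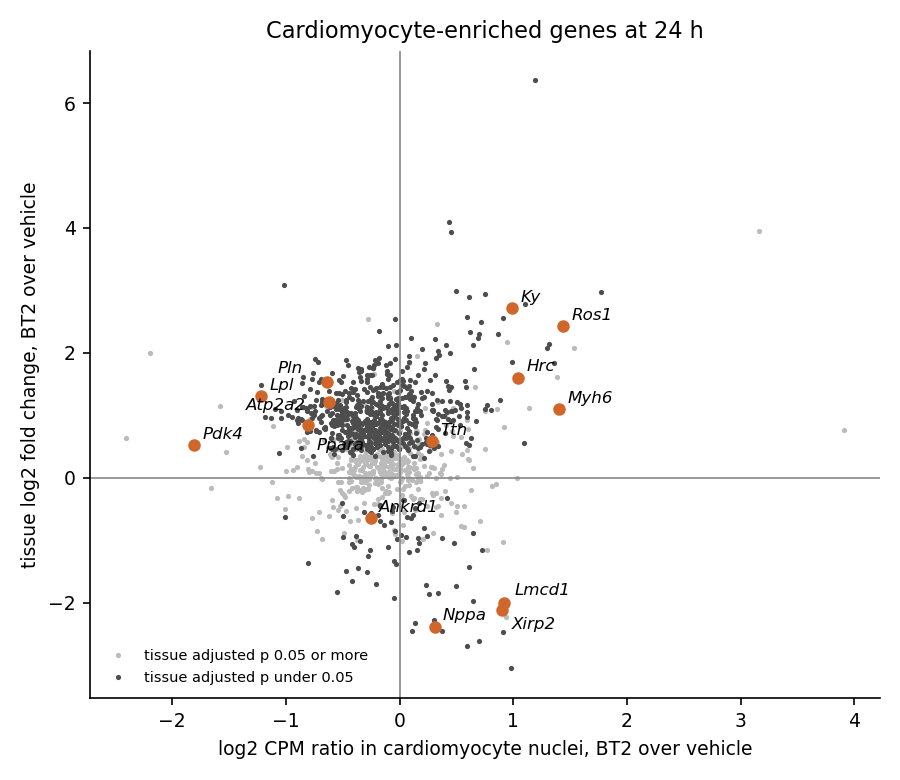
Log2 CPM ratio in cardiomyocyte nuclei (horizontal axis) against the tissue log2 fold change (vertical axis), BT2 over vehicle at 24 h, for 1135 genes at 2 or more times the CPM of other nuclei; dark points passed an edgeR adjusted p under 0.05 in tissue and named genes are orange. Most points lie above 0 in tissue (56.2% called higher), while Xirp2, Lmcd1 and Nppa lie below 0 in tissue and above 0 in nuclei.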

How the data were processed

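Nuclei and tissue RNA of the area at risk were analysed from the files as deposited. The authors deposited UMI counts per barcode for 39537 nuclear features, made with Cell Ranger 8.0.1 per the file headers, and read counts per gene for 31580 genes in 8 tissue libraries. According to the submitters' processing notes the tools were Trim Galore, STAR and featureCounts and the build was Rnor_6.0. The counting of introns, the strand setting and the annotation used are not given in these sources, so genes that overlap or have close copies (Myh6 and Myh7 among them) are uncertain.

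Cardiomyocyte nuclei were taken by the rule given above, UMIs were summed per library, and CPM ratios with exact conditional Poisson 95% intervals were computed in Python 3.11.15 for genes with at least 100 UMIs over both libraries. No doublet caller was run: the ceiling of 3 UMIs on Ptprc, Flt1 and Pdgfra, the same ceiling at 0, and a limit on depth stand in for it. Leukocyte, endothelial and fibroblast nuclei for comparison had at least 3 UMIs of Ptprc, Flt1 or Pdgfra and at most 1 of each of the other 2. Thinning drew 1000 UMIs from each nucleus. Intervals cover counting error only, and nuclei are not replicates. The deposited barcodes had a lowest depth of 500 UMIs.

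Tissue counts (20767609 to 24480984 per library at 24 h) were fitted with edgeR 4.0.16 in R 4.3.3: filterByExpr, TMM, quasi-likelihood fits with group means on all 8 libraries (4 residual degrees of freedom), BT2 against vehicle at 24 h, two-sided, with Benjamini-Hochberg adjustment over 15216 genes. Both statistics were checked on simulated data. Alternatives covered the rule's bounds, depth, scaling, gene filters, DESeq2 1.42.0, a replicate block and each 24 h library left out. Named genes were the 12 highest and 12 lowest ratios among genes at 2 or more times the CPM of other nuclei, 5 each among the rest, up to 2 each way per list, all with at least 200 UMIs, the 5 most enriched genes, and a fixed set; other members of a list were named after their values were seen. Some genes that this rule takes are not reported here. The nuclei's rule and the 36 gene lists (802 of 805 entries matched) were chosen with earlier results of these data known. Promoters are from RefSeq, GRCr8.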

Additional observations from a re-analysis of the deposited data

Results flagged for a closer look

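For 33 of the 74 named genes past 1.5-fold in cardiomyocyte nuclei, the tissue libraries of the same time point were called in the opposite direction by edgeR and did not overlap between groups. The difference between nuclei and tissue was not tested, because each nuclear group is 1 library. Of these genes, 13 were higher in nuclei of BT2-treated rats and fell in tissue, and 20 were lower in the nuclei and rose in tissue. Over all genes tested in tissue 18.9% were called higher and 20.7% lower. Among the 1135 cardiomyocyte-enriched genes 56.2% rose and 6.34% fell, and of the 132 lower in nuclei 80 rose. A rise in tissue is thus common among genes lower in the nuclei. The share of all genes without overlap between groups was not computed.

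Xirp2 had a log2 ratio of 0.90 in the nuclei and a log2 fold change of -2.12 in tissue, and Lmcd1 had 0.92 in nuclei and -2.004 in tissue; both stood largely in a minority of nuclei. Gadd45g had 0.73 in nuclei and -1.16 in tissue, Ctgf 0.59 in nuclei and -2.53 in tissue, and Runx1 0.79 in nuclei and -1.86 in tissue. Acsl4, which activates long-chain fatty acids, had 0.68 in nuclei and -1.17 in tissue, and P4ha1 had 0.97 in nuclei and -0.98 in tissue. Spred3, an inhibitor of ERK signalling, had 0.59 in nuclei and -1.68 in tissue. Among cytoskeletal genes, Diaph3, a formin, had 1.42 in nuclei and -1.66 in tissue, and Lima1, an actin-binding LIM protein, had 1.05 in nuclei and -0.70 in tissue. Il1r1 had 1.07 in nuclei and -0.46 in tissue, Junb 0.77 in nuclei and -0.60 in tissue, and Hsp90ab1, a chaperone, 0.62 in nuclei and -0.40 in tissue.

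On the lower side in nuclei, genes of fuel use were Lpl (-1.21 in nuclei and 1.31 in tissue), Hadh of fatty acid oxidation (-0.94 in nuclei and 1.05 in tissue), Mccc2 (-0.95 in nuclei and 0.97 in tissue) and Slc2a12 (-1.13 in nuclei and 0.96 in tissue). Genes of the respiratory chain and its cofactor were Uqcrc2 (-0.65 in nuclei and 0.78 in tissue), Sdhd (-0.60 in nuclei and 0.85 in tissue) and Coq3 (-1.12 in nuclei and 1.08 in tissue). Pln had -0.63 in nuclei and 1.54 in tissue, and Atp2a2 had -0.62 in nuclei and 1.22 in tissue. The structural genes Mypn and Bag3 each had -0.59 in nuclei, with 0.47 in tissue for both. Adra1b had -0.68 in nuclei and 1.01 in tissue, and Socs2 -0.69 in nuclei and 1.17 in tissue. Txnip had -1.18 in nuclei and 0.97 in tissue, Bnip3 -0.90 in nuclei and 0.96 in tissue, and Herpud1 -1.21 in nuclei and 0.71 in tissue. Ddc had -1.10 in nuclei and 1.10 in tissue, and Rilp, an adaptor of lysosome transport, -1.06 in nuclei and 0.40 in tissue. Ccng1, a cyclin, had -0.87 in nuclei and 0.47 in tissue, and Fbxo31, an F-box protein, -0.71 in nuclei and 0.73 in tissue.

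The tissue call was kept without each 24 h library in turn for 19 of the 33 genes. It was lost without BT2 library 1 and without vehicle library 1 for the other 14, which were Slc2a12, Ddc, Rilp, Herpud1, Mypn, Bag3, Adra1b, Junb, Hsp90ab1, Ccng1, Fbxo31, Il1r1, Lima1 and Diaph3. Without vehicle library 2 it was lost for the same genes except Il1r1 and Diaph3, and without BT2 library 2 for Herpud1, Junb, Hsp90ab1, Il1r1 and Lima1. In the nuclei, the log2 ratio of Runx1, Gadd45g, Ctgf, Spred3 and Bnip3 changed sign in at least 1 alternative. Besides the genes said above to come within 1.5-fold, Acsl4, Hsp90ab1, Sdhd, Fbxo31, P4ha1, Uqcrc2, Lima1 and Diaph3 did so without a change of sign. Their log2 ratios nearest to no change included 0.087 for Acsl4, -0.21 for Sdhd and 0.28 for Hsp90ab1.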

How the results depend on the processing

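The nuclear values rest on 1 library per group, so no setting here measures the spread between animals, and depth limits genes under about 100 UMIs. The share of cardiomyocyte nuclei stayed higher with BT2 under each bound tried. At a marker share of 1% it was 8.63% with BT2 and 6.12% with vehicle. At 5% it was 6.56% with BT2 and 5.08% with vehicle, and at 10% it was 3.61% with BT2 and 1.66% with vehicle. At 1000 UMIs it was 7.08% with BT2 and 5.555% with vehicle. With Ptprc, Flt1 and Pdgfra at 0 it was 4.25% with BT2 and 3.43% with vehicle, and without that ceiling 8.65% with BT2 and 7.53% with vehicle. The share also depends on the other barcodes, which included 1116 leukocyte nuclei with BT2 and 2708 with vehicle. A difference in the number of cardiomyocytes was not tested. Genes higher in the nuclei numbered 259 at a marker share of 10% and 402 with Ptprc, Flt1 and Pdgfra at 0, and genes lower numbered 489 with nuclei weighted equally. Thinning to 1000 UMIs gave 173 higher and 143 lower, a minimum of 20 UMIs per gene gave 1731 and 807, and a minimum of 500 gave 123 and 84; the last 3 settings change how many genes are measured. Of 74 named genes past 1.5-fold, 66 kept their sign in all 15 alternatives, and Opcml did so in the 14 that gave it a value. The minimums of 20 and of 500 UMIs per gene are among the 15, but cannot change the ratio of a named gene or a list median. The log2 ratio changed sign for Runx1 (-0.043) and Gadd45g (-0.0544) at a marker share of 10%, for Fosb with the 3 genes at 0 (0.37), for Egr1 at depths between the 5th and 95th percentile (0.0246), for Ctgf with equal weights (-0.0145), and for Spred3 (-0.061) and Bnip3 (0.37) after thinning. The cause was not tested. Leaving out the nuclei with most Xirp2 and leaving out barcodes in both libraries were chosen after seeing the data. In tissue, leaving out 1 library at 24 h gave 1484 to 2277 higher and 1492 to 2281 lower genes. Without BT2 library 1 there were 1490 higher and 1492 lower, without BT2 library 2 there were 2277 and 2281, without vehicle library 1 there were 1647 and 1822, and without vehicle library 2 there were 1484 and 1588; a lone library was assumed to vary like the other groups. The sample number as a replicate block gave 2793 higher and 3031 lower genes, and 53 of 57 named genes called in tissue kept their call with it. Deviations of BT2 library 1 and vehicle library 1 at 24 h from their group means correlated at 0.0189. This single value cannot show whether equal-numbered samples share a batch or preparation, which the labels do not give. Of those 57 genes, 34 kept the call without each 24 h library in turn.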

Other observations

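Genes at less than 2 times the CPM of other nuclei made up 561 of the 636 genes higher with BT2. The highest ratios among them with at least 200 UMIs were those of Opcml (44.4 CPM with BT2 and 5.46 CPM with vehicle), Hmcn2 (67.0 CPM with BT2 and 11.1 CPM with vehicle), Ccdc80 (55.7 CPM with BT2 and 9.86 CPM with vehicle), C1qtnf7 (61.2 CPM with BT2 and 14.1 CPM with vehicle) and Csmd1 (48.9 CPM with BT2 and 11.5 CPM with vehicle). Ccdc80, which encodes a matrix protein, was seen in 80.9% of fibroblast nuclei of the vehicle library, and Hmcn2, a hemicentin of the matrix, in 62.9%. The lowest ratios outside the enriched genes were those of Herpud1, a gene of the endoplasmic reticulum stress response, at 20.4 CPM with BT2 and 47.2 CPM with vehicle (ratio 0.43, 0.33 to 0.56), of Coq3 of ubiquinone synthesis, at 20.4 CPM with BT2 and 44.3 CPM with vehicle, and of Rbms3, an RNA-binding protein, at 784 CPM with BT2 and 1579 CPM with vehicle.

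In the clock and glucocorticoid list 0 of 20 measured genes were higher, 2 were lower and 9 lay above a ratio of 1. The list's median log2 ratio was -0.17, beside -0.16 over all 1202 cardiomyocyte-enriched genes, of which 139 were lower and 75 higher. In tissue 10 of these 20 genes rose and 2 fell by edgeR. Of 13 measured hypoxia genes 1 was higher and 1 lower in the nuclei: P4ha1, a collagen prolyl hydroxylase, had 83.9 CPM with BT2 and 42.8 CPM with vehicle, and Vegfa, the main angiogenic growth factor, was within 1.5-fold at 1210 CPM with BT2 and 1400 CPM with vehicle.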
